A study of Drosophila melanogaster with 2 samples.

Results

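The 394 regions described here are those on chromosome 4 among the 30000 peaks and background regions of the pooled relaxed list, which the authors called on both replicates together for use in an irreproducible discovery rate (IDR) analysis. A region belongs to the set when its chromosome is chr4 in the dm6 build, whatever its signal. Of the 394 regions, 12 were also rows of the optimal IDR thresholded list, 244 had a summit within 100 bp in the relaxed list of replicate 3, and 116 had one in the list of replicate 4. Both replicates had such a summit at 72 regions, replicate 3 alone at 172, replicate 4 alone at 44, and neither at 106. The data came from chromatin immunoprecipitation and sequencing (ChIP-seq) of whole Drosophila melanogaster larvae that were wandering, in the third instar, males and females pooled, of the strain Dif-GFP. This is a stable transgenic line whose Dif-eGFP protein carries the tag at its C terminus, and the precipitating antibody was raised against GFP. There was 1 group, with biological replicates 3 and 4, so no mutant, treated or untagged larvae were compared, and the named control experiment was not analysed here. Whole larvae mix all tissues, so fewer cells bound by Dif and less binding per cell cannot be told apart.

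Chromosome 4 of the fly, called the dot chromosome or Muller F element, is its smallest chromosome, replicates late and normally does not undergo crossing over. Its active genes sit in chromatin rich in heterochromatin protein HP1a and dense in transposon remnants, and the chromosome-specific protein POF binds along it. Dif is an NF-κB family transcription factor that the Toll pathway releases into the nucleus, and it is known for inducing antimicrobial peptide genes in the larval and adult fat body. NF-κB proteins recognise κB sites, GC-rich motifs with a short spacer.

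The sequences under 5 of the 12 IDR regions are shown first, since the 12 hold the strongest signal on the chromosome. The 5 are a selection and not the strongest of the 12, since the region at Tdg, with a pooled signal of 148.5, is not shown. Shown are the promoter of zfh2, an intron of zfh2, the regions just upstream of the eye gene toy and of Sox102F, and the region over the microRNA gene mir-954. Each is 101 bases of the Release 6 assembly (dm6), plus strand, with the summit in the middle and the summit base and 5 bases to each side in capitals.
zfh2 promoter, chr4:501675-501775: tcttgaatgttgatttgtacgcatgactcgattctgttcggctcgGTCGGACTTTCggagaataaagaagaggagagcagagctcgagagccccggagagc
zfh2 intron, chr4:508492-508592: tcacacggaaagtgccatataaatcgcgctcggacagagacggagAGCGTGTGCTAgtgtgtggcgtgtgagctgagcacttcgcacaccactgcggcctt
toy upstream, chr4:989510-989610: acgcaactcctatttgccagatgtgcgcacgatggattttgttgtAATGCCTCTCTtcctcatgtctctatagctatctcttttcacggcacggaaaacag
Sox102F upstream, chr4:834430-834530: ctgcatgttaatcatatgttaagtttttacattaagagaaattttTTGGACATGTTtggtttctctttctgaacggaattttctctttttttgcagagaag
mir-954, chr4:626085-626185: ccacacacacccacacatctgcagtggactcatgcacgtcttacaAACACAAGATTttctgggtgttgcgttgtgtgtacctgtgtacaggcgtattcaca

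κB motifs were rare in the set. A broad κB motif of 10 letters, searched by that name on both strands within 100 bp of the summit, matched 2 of 394 chromosome 4 regions (0.508%, 95% interval 0.0615 to 1.82%), against 1.91% of the 29606 regions on the other arms. It matched 0 of the 12 IDR regions (up to 26.5%), against 1.25% of IDR regions on the other arms. In tiled windows of the same length it was found in 0.846% on chromosome 4 and in 1.72% on the other arms. The lists of the single replicates held 0 matches on chromosome 4, among 384 regions in replicate 3 (up to 0.956%) and 341 in replicate 4 (up to 1.08%). All intervals on shares are exact Clopper-Pearson intervals and cover counting error only. The matches are given with 10 bases to each side and the motif in capitals, on the plus strand. Labels here and for the next motif name the place of the region's summit.
Exon of a noncoding gene near MED26, chr4:777007-777036: ataatacatgGGGGCCTTCCtgtagaaagg
mGluR 3′ UTR, chr4:947564-947593: atcatgaaatGGAAGATCCCatttttccga
The first lay at a region with a pooled signal of 28.4, at rank 25022 of 30000, with no summit within 100 bp in either replicate. The second lay at a region with a signal of 35.6, whose summit was in an INE-1 copy. Replicate 3 had a summit there with a signal of 26.4, and replicate 4 had none.

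GAGAGAG, the repeat bound by GAGA factor, matched 7 chromosome 4 regions (1.78%, 0.717 to 3.63%), against 9.66% of regions on the other arms. The matches are shown because these 7 regions are all the members that hold the word. The share at chromosome 4 regions was close to that of chromosome 4 tiles, 1.77%, while tiles of the other arms held it in 2.45%. In the list of replicate 4 it matched 2.93% of chromosome 4 regions. By rank, it matched 1 of the 12 IDR regions (8.33%, 0.211 to 38.5%), against 34.7% on the other arms. It matched 4.76% of members in ranks 4176 to 10000 (0.993 to 13.3%), against 10.9% on the other arms, 1.90% in ranks 10001 to 20000 (0.393 to 5.45%), against 4.74%, and 0 of 161 in ranks 20001 to 30000 (up to 2.27%), against 3.29%. Of these intervals, the last alone lies wholly below the share of the other arms. Each window carries 20 bases to each side of the match, or 10 where a UTR lies close by, on the plus strand of dm6, with the match on either strand in capitals.
pan intron, chr4:87474-87520: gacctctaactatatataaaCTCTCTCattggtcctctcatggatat
anne intron, chr4:139050-139096: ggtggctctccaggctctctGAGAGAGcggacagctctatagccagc
NfI upstream, chr4:276537-276583: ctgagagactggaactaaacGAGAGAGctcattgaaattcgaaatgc
Hcf 3′ UTR, chr4:374649-374675: gcgctccccgCTCTCTCgctctcgaac
zfh2 intron, chr4:507618-507664: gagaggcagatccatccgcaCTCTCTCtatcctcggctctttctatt
Intron near 4E-T, chr4:960276-960322: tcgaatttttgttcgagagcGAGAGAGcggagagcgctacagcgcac
Intergenic near toy, chr4:1008531-1008577: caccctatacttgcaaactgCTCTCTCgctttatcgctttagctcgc
The windows in the introns of anne and near 4E-T and in the 3′ UTR of Hcf belong to regions whose summits lay in copies of the DNA transposon 1360. The zfh2 intron is the only IDR region on chromosome 4 with a match, and it is 1 of 12, which allows a share between 0.211 and 38.5%. The intergenic region, the pan intron and the Hcf 3′ UTR had summits in both replicates, and the other 4 did not.

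The other 7 words, searched on both strands in the same windows, had shares on chromosome 4 that lay below, near or above those of the other arms. CACACAC, which shares letters with the GTCACACT core of Motif 1, matched 3.55% of chromosome 4 regions (1.96 to 5.89%), against 11.6% on the other arms. Tiles held it in 2.08% on chromosome 4 and in 6.27% on the other arms. The TATA-like word TATAAA matched 32.2% (27.6 to 37.1%), against 15.7% on the other arms, with 38.4% of chromosome 4 tiles and 21.6% of other tiles. The E-box CAGCTG matched 7.61% (5.20 to 10.7%), against 11.1% on the other arms, and the E-box CACGTG 2.79%, against 3.02%. CAGGTA, part of the site of the pioneer factor Zelda, matched 6.60%, against 5.11%. The DREF site TATCGATA matched 1.52% of chromosome 4 regions and 1.37% of other regions, although tiles held it in 1.98% on chromosome 4 and 0.550% elsewhere, and the Motif 1 core matched 0.761%, against 1.51%. The median GC content of these windows was 37.8% at chromosome 4 regions, against 46.3% on the other arms. Tiles averaged 35.3% GC on chromosome 4 and 42.2% on the other arms, and the part of GC content in the motif shares was not tested.

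**Figure D1:**
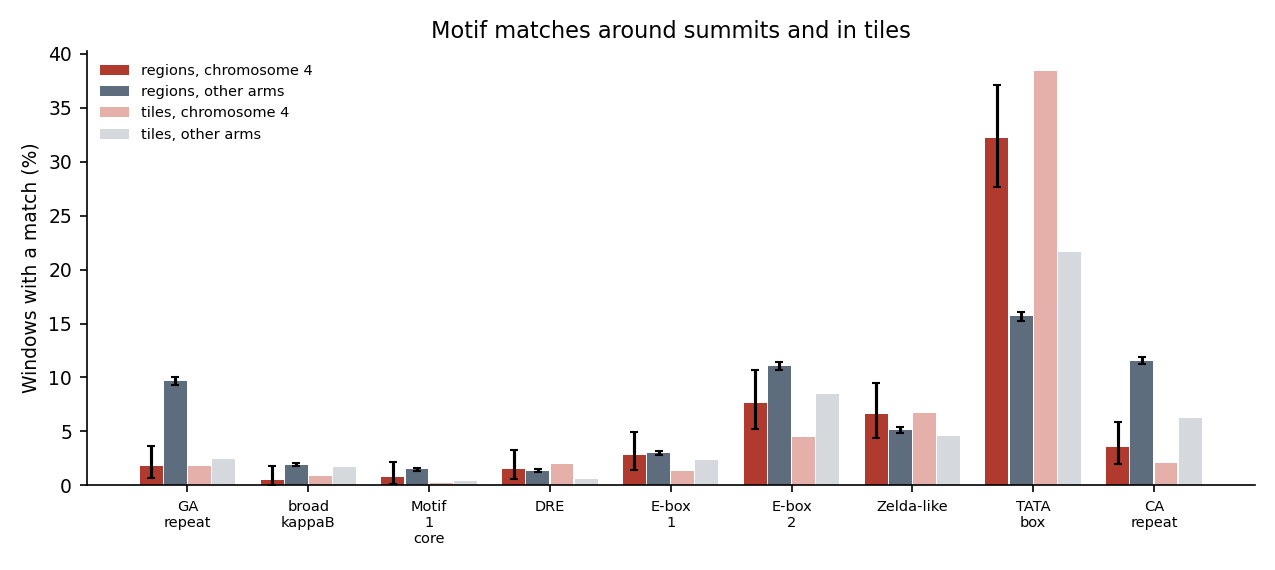
Share of windows, 100 bp to each side of the centre, with a match to each of 9 motifs, at pooled relaxed regions on chromosome 4 and on the other arms (bars with 95% Clopper-Pearson intervals) and in tiled windows of both. The GA repeat stands at 1.78% of chromosome 4 regions, against 9.66% of regions on the other arms, while the TATA box stands at 32.2%, against 15.7%.

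Chromosome 4 was well represented among weak regions and sparse among strong ones. It holds 1.01% of the summed length of the arms and held 1.31% of the pooled regions (1.19 to 1.45%), or 292 regions per Mb, against 223 per Mb on the other arms and 153 per Mb on X. The share was 1.28% in the list of replicate 3 (384 regions) and 1.14% in that of replicate 4 (341 regions). By rank of pooled signal, it was 0.287% among ranks 1 to 4175 (12 regions, 0.149 to 0.502%), which are the IDR list, and 1.08% among ranks 4176 to 10000 (63 regions). It was 1.58% among ranks 10001 to 20000 (158 regions) and 1.61% among ranks 20001 to 30000 (161 regions). The intervals of the last pair of classes lay above the length share, and that of the first lay below it.

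The share of chromosome 4 regions in the IDR list was therefore 3.05% (1.58 to 5.26%), against 14.1% on the other arms and 13.9% over all 30000 regions. On X alone the share was 17.4%. The authors' q value was at most 0.01 at 51 chromosome 4 regions (12.9%, 9.79 to 16.7%), against 27.7% on the other arms and 27.5% over all arms. The IDR list is the strongest 4175 pooled regions by signal, so these shares and the signal describe one ranking. The pooled signal on chromosome 4 ran between 25.6 and 256.9 with a median of 34.2, against a median of 37.8 and a highest value of 4992 on the other arms. Signal is a deposited value whose scaling was not given in the sources used here. Library depth is unknown. The ratio of the chromosome 4 median to that of the other arms was 0.903 in the pooled list, 0.891 in replicate 3 and 0.881 in replicate 4.

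Summits were found again in the replicates less often than elsewhere over the whole set, and about as often once rank was taken into account. Replicate 3 had a summit within 100 bp at 61.9% of chromosome 4 regions (56.9 to 66.7%), against 69.6% on the other arms and 69.5% over all arms. Replicate 4 had one at 29.4% (24.98 to 34.2%), against 40.9% on the other arms and 40.7% over all arms. Both replicates had one at 18.3% (14.6 to 22.5%), against 28.8% on the other arms and 28.6% over all arms. These shares depend on the distance, since both replicates had a summit within 50 bp at 10.2% of chromosome 4 regions, within 200 bp at 25.1%, and an overlapping region at 27.7%. For replicate 4 the same settings gave 18.02, 38.1 and 40.6%. Within ranks 10001 to 20000, replicate 3 matched 67.1% of chromosome 4 regions (59.2 to 74.3%), against 68.9% on the other arms, and replicate 4 matched 29.1% (22.2 to 36.9%), against 32.1%. In ranks 4176 to 10000 the same shares were 93.7% against 90.8% for replicate 3 and 50.8% against 56.0% for replicate 4. In the weakest class, ranks 20001 to 30000, they were 42.2% against 46.0% and 17.4% against 21.3%, and every chromosome 4 interval in these 3 classes contained the value of the other arms. The lists share their source, since the pooled list holds the reads of both replicates.

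**Figure D2:**
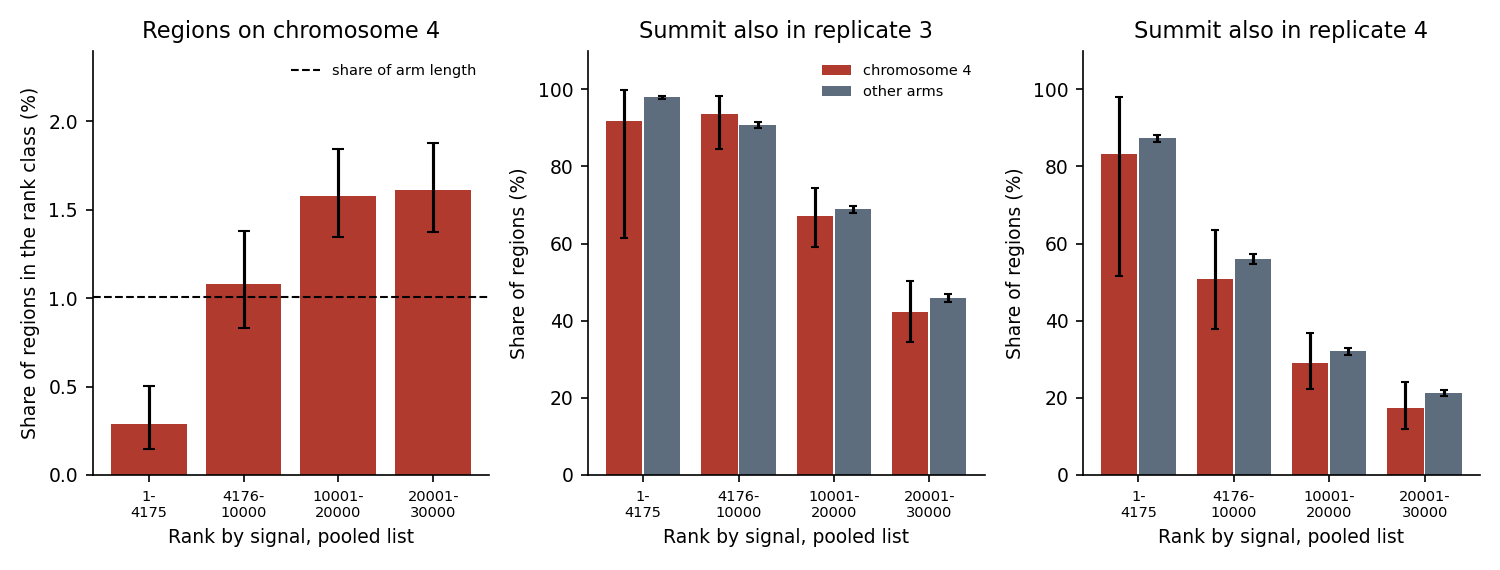
Left, share of the pooled regions of each rank class that lay on chromosome 4, with the share of chromosome 4 in the arm length (1.01%) as a dashed line. Middle and right, share of regions with a summit within 100 bp in replicate 3 and in replicate 4, for chromosome 4 and the other arms, with 95% Clopper-Pearson intervals throughout. The chromosome 4 share grows with weaker rank, and beyond ranks 4176 to 10000 the match shares of both sets fall together.

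The replicate lists were also compared directly, without the pooled list. Of the 384 regions of replicate 3, 71 (18.5%, 14.7 to 22.7%) had a replicate 4 summit within 100 bp, against 29.2% on the other arms. Of the 341 regions of replicate 4, 71 (20.8%, 16.6 to 25.5%) had one of replicate 3, against 29.1% on the other arms. Among the strongest 4175 stood 15 of the 384 chromosome 4 regions in replicate 3 and 15 of the 341 in replicate 4. Over all arms, the strongest 4175 are 13.9% of the 30000 regions in each list. Across the 72 members matched in both lists, the signals of both replicates were related with Spearman's rho at 0.555 and, after a log2 transform, Pearson's r at 0.698. Without the 2 members farthest from the median they were 0.518 and 0.646, and on the other arms rho was 0.638 and r 0.712 over 8521 regions. These are correlations across regions of the same libraries, not across independent samples.

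Of the 12 IDR regions, 8 lay at 4 genes that encode transcription factors. The gene zfh2, which encodes a large zinc finger and homeodomain protein needed in the wing hinge and nervous system, held 5 of them. The list used below has 13 such genes among the 80 coding genes, and how their number and length bear on this count was not tested. At 39065 bp, zfh2 is longer than the median coding gene of the chromosome, at 10090 bp. The strongest of all was its promoter region at chr4:501666-501786, with the summit in intergenic sequence 85 bp upstream of the start site. Its signal was 256.9 in the pooled list, 202.5 in replicate 3 and 80.4 in replicate 4, at ranks 710, 685 and 633. All 3 lists thus put it first on the chromosome. The other 4 lay in zfh2 introns, 1004, 3424, 5818 and 6732 bp downstream of the start, with pooled signals of 87.5, 121.1, 125.3 and 137.2.

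In replicate 3 the intronic summits at 1004, 3424 and 6732 bp had signals of 42.2, 106.0 and 115.8. In replicate 4 the same summits had signals of 32.2, 27.3 and 42.4. The order in replicate 3 follows the pooled order, while in replicate 4 the summit at 1004 bp exceeds that at 3424 bp. The region at 5818 bp, which carries the GAGAGAG match printed above, had no summit within 100 bp in either replicate. The nearest summits lay 113 bp away in replicate 3, with a signal of 102.1, and 122 bp away in replicate 4, with a signal of 49.5. That replicate 3 summit was matched to a weaker pooled region 6024 bp downstream of the start, with a signal of 39.8. In replicate 4 this weaker region was matched to another summit, with a signal of 29.0. Widening the distance to 200 bp would match the region at 5818 bp in both replicates.

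With its promoter, zfh2 held 20 of the 394 regions over its 39065 bp, on the plus strand at chr4:501810-540874. Of these, 7 had summits in both replicates. Outside the IDR list the strongest lay 26320 bp into the gene with a pooled signal of 72.7, a replicate 3 signal of 58.1 and a replicate 4 signal of 48.4. The replicate 4 value there, at rank 1697 in its list, exceeds those at the 3 intronic IDR summits that replicate 4 matched.

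**Figure D3:**
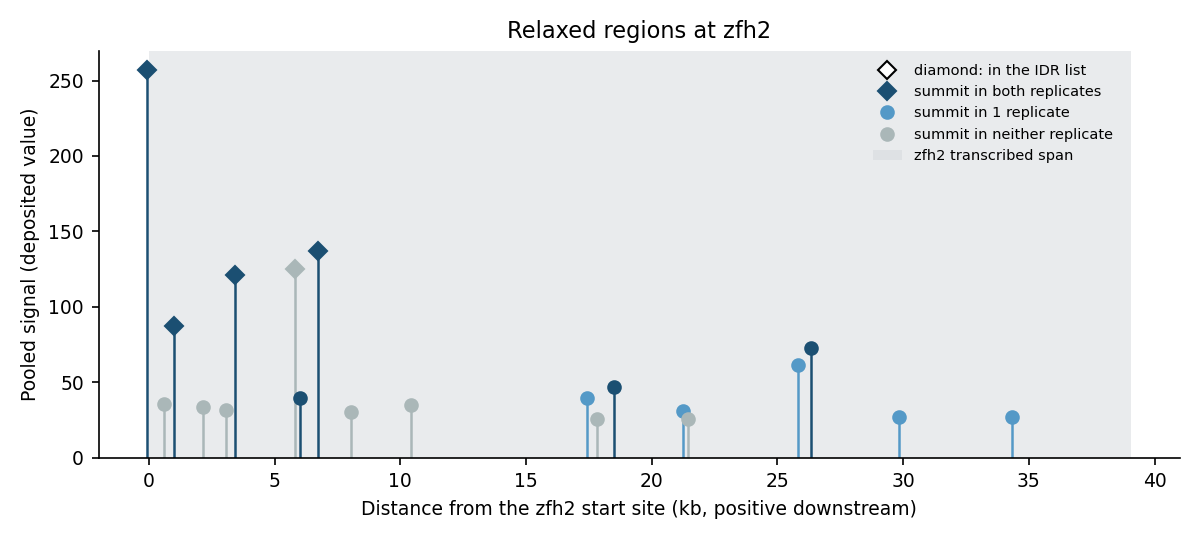
Pooled signal of the 20 relaxed regions at zfh2 by distance of the summit from the start site in kb, with colour for the replicates that also have a summit within 100 bp and diamonds for the IDR list. The 5 IDR regions all lie within 7 kb of the start, led by the promoter at 256.9, and the regions farther downstream reach 72.7 at most.

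Other developmental regulators also held IDR regions, with lower pooled signals than those at Tdg, ATPsynbeta and RpS3A, described below. At toy, a Pax6 homologue at the top of the eye gene network, the summit lay 165 bp upstream of the start, with signals of 122.5 pooled, 83.5 in replicate 3 and 28.0 in replicate 4. The summit matched to the base in both replicates. At ci, the transcription factor of the Hedgehog pathway, the summit lay in the 5′ UTR 87 bp from a start site and 79 bp from that of an antisense RNA. Its signals were 114.4 pooled, 81.7 in replicate 3 and 34.6 in replicate 4. At Sox102F, a SoxD family factor, the summit lay 87 bp upstream, with signals of 89.6 pooled and 52.6 in replicate 3. Replicate 4 had no summit within 100 bp there, and its nearest lay 196 bp away with a signal of 23.2.

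The region over mir-954 had its summit inside the annotated microRNA gene at chr4:626126-626212 on the plus strand, and 104 bp upstream of mav, which encodes a TGF-β family ligand. Its signals were 117.4 pooled, 82.3 in replicate 3 and 25.8 in replicate 4. Which of the 2 genes the region belongs with cannot be told apart by position.

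Housekeeping genes held the remaining 3. A summit in an exon of lncRNA:CR43958, a noncoding RNA that starts at the same site, lay 507 bp inside Tdg, which encodes a thymine DNA glycosylase, at signals of 148.5 pooled, 157.2 in replicate 3 and 30.8 in replicate 4. A second, weaker region sat on the Tdg start itself, 166 bp from the divergent gene Pur-alpha, with signals of 69.6 pooled, 41.6 in replicate 3 and 24.3 in replicate 4. At ATPsynbeta, the catalytic subunit of the mitochondrial ATP synthase, the summit lay 45 bp from a start site and 152 bp from that of the overlapping gene CG11076. Its signals were 141.1 pooled, 104.1 in replicate 3 and 26.9 in replicate 4. At RpS3A, a protein of the small ribosomal subunit, the summit lay 33 bp from the start, with 125.5 pooled, 100.1 in replicate 3 and 48.6 in replicate 4.

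Counting the nearest summit, replicate 3 put 10 of the 12 among its strongest 4175 regions and replicate 4 put 8 there. Summits within 100 bp were found for 11 of the 12 in replicate 3 (91.7%, 61.5 to 99.8%), against 98.0% of IDR regions on the other arms, and for 10 in replicate 4 (83.3%, 51.6 to 97.9%), against 87.3%. The signal of replicate 3 exceeded that of replicate 4 at all 12, and since the scaling of each list is not given, this says nothing of occupancy.

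**Figure D4:**
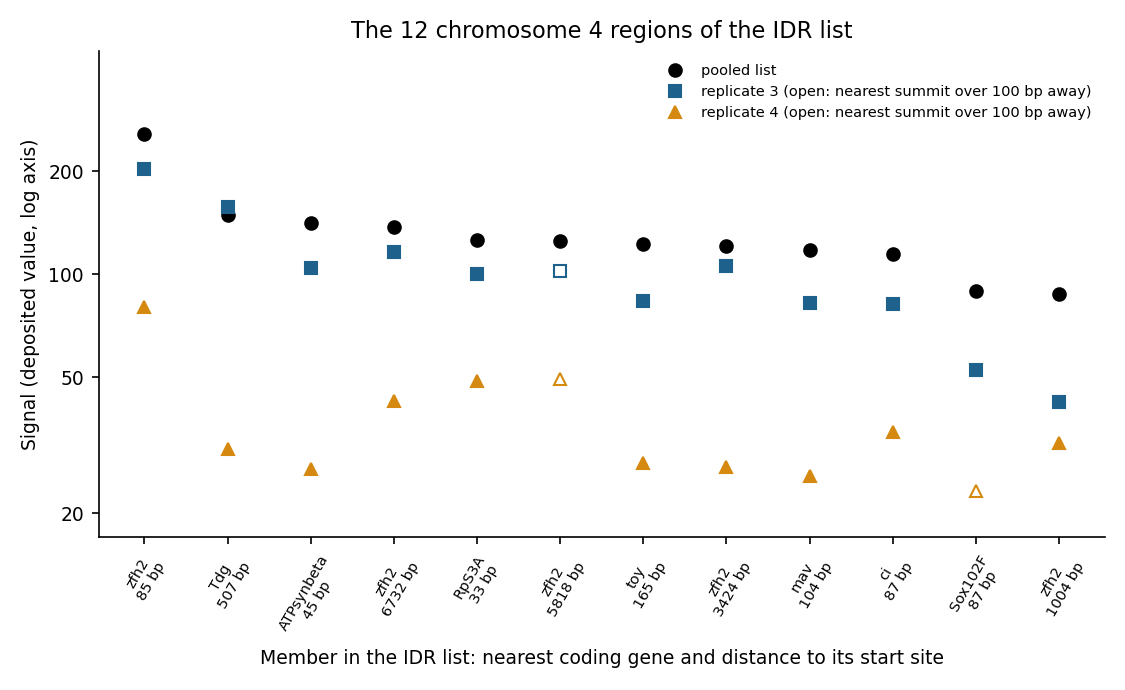
Signal of the 12 chromosome 4 IDR regions in the pooled list (circles), replicate 3 (squares) and replicate 4 (triangles), on a log axis, ordered by pooled signal and labelled by nearest coding gene and distance to its start site. Open symbols mark a nearest summit over 100 bp away, which occurs for the zfh2 intron at 5818 bp in both replicates and for Sox102F in replicate 4.

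The IDR list ended at a pooled signal of 83.9 over all arms, and chromosome 4 had regions close to that edge. The weakest inside was the zfh2 intron at 87.5, and the strongest outside was the PlexB promoter at 82.9. The next outside were at the starts of MED26, a Mediator subunit, at 82.7, of Rnf11, a ubiquitin ligase, at 81.6, and of Crk, an adaptor protein, at 80.4. Replicate 3 had signals of 81.1, 75.3, 60.7 and 65.0 at PlexB, MED26, Rnf11 and Crk, and replicate 4 had no summit within 100 bp at any of the 4. They are single-replicate promoters, 5 to 81 bp from a start site. Rnf11 was named after its value was seen.

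The strongest regions outside the IDR list with summits in both replicates followed. A Sox102F intron 1298 bp from a start site had signals of 77.2 pooled, 39.0 in replicate 3 and 44.6 in replicate 4. Here the replicate 4 signal exceeds that of replicate 3. A pan intron had signals of 76.0, 44.7 and 20.9 in the same order of lists, and the Asator promoter had 75.0, 51.7 and 18.6. The next was an INE-1 copy 1006 bp upstream of anne, with 74.0 pooled, 47.5 in replicate 3 and 9.38 in replicate 4. The zfh2 intron and Tdg start described above were followed by 2 regions at anne start sites, by a 3′ UTR shared by Cals and sv, and by the CG31997 promoter, with pooled signals between 65.6 and 68.8. Of these 10 regions, 5 lay within 500 bp of a start site.

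Regions seen in neither replicate were weak, apart from the zfh2 intron at 5818 bp. The next in signal was a coding region of ATPsynbeta at 45.9, at rank 10567. Coding regions of Pur-alpha at 42.5 and Sox102F at 41.6 were also among the strongest of them. Only 1 of the 106 regions of this kind had a q value of at most 0.01, against 31 of the 72 with summits in both replicates.

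Chromosome 4 has 80 annotated protein-coding genes, and 50 of them (62.5%, 51.0 to 73.1%) had a member within 500 bp of a start site, against 50.4% of genes on the other arms, 42.8% on X and 50.5% over all arms. In the IDR list the order was the other way round, with 8 of 80 (95% interval 4.42 to 18.8%), against 15.3% on the other arms and 15.3% over all arms, and that interval contains the other value. Divergent or overlapping genes share members, as at ATPsynbeta with CG11076 and Tdg with Pur-alpha, so the genes are not independent.

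Among 13 transcription factor genes, 10 had a member at a start site and 4 an IDR region. Besides zfh2, toy, ci and Sox102F, these were pan, the TCF of the Wnt pathway, at 68.0, Mitf, a regulator of lysosomal genes, at 54.9, and sv, a Pax2 homologue, at 49.5. The eye gene ey, the other Pax6 homologue, had 41.2 at a summit 411 bp from its start with none in either replicate, NfI had 35.5 and onecut 26.8. The genes dati, fd102C and pho, which encodes a DNA-binding Polycomb group protein, had none.

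Among 18 signalling and synapse genes, 10 (55.6%, 30.8 to 78.5%) had a member at a start site and 0 an IDR region. The strongest were PlexB, a semaphorin receptor, and Crk, described above, followed by the TGF-β family ligand myo at 61.0, the kinase gene CaMKII at 50.9 and the synaptic vesicle priming gene unc-13 at 50.2. Lower were lgs of the Wnt pathway at 45.8, Syt7 at 45.7, Cals at 33.9, the ephrin receptor Eph at 32.2 and the calcium pump PMCA at 26.4. The 8 without one were Ephrin, Gat, Ekar, mGluR, PlexA, Actbeta, Dyrk3 and Cadps. At 4 of the 10, the strongest member at a start site had a summit within 100 bp in both replicates. Among them was myo, with 23.1 in replicate 3 and 29.6 in replicate 4. The PMCA region had a summit within 100 bp in neither replicate.

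Among 17 housekeeping genes, 11 (64.7%, 38.3 to 85.8%) had a member at a start site and 2 an IDR region there, those of ATPsynbeta and RpS3A. MED26, Asator, Tdg and Pur-alpha were described above, and gw, a component of microRNA silencing, had 62.9. The translation regulator 4E-T had 59.0, Rad23 51.7, Gyf 50.1 and Taf3 27.9, the last with a summit in neither replicate. Hcf, ND-49, Slip1, eIF4G1, Arf4 and PIP4K had no member at a start site. Of the 2 muscle genes, Zyx, the zyxin of focal adhesions, shared a member of 46.3 with apolpp, and bt, which encodes projectin, had none. Of the 30 genes in no list, 18 had a member.

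Counted over whole gene spans rather than start sites, zfh2 led with 19 members, followed by Asator with 13, CaMKII and pan with 12 each, and Ank, a cytoskeletal adaptor, and unc-13 with 10 each. PMCA, Sox102F and Tdg had 9 each, and CG33978 and PlexA shared the next place with 8 each. Per length, Asator, CaMKII and Ank stood at 6.64, 6.52 and 6.77 members per 10 kb, and zfh2 at 4.86. The longest gene, bt, held 4 members over 52075 bp, or 0.768 per 10 kb. None of its members had summits in both replicates, and the same held for Ank and PlexA. In all, 74 of the 80 genes held at least 1 member, and 306 of the 394 members lay within a coding gene.

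Along the chromosome, full bins of 100 kb held between 10 and 49 members. The densest, 400001 to 500000 bp, held 49 members and 0 IDR regions, and the next bin, with zfh2 and Tdg, held 42 members and 6 of the 12 IDR regions. The bin of bt, 700001 to 800000 bp, held 14 members, of which 6 had a summit in replicate 3 and 0 in replicate 4. The first member lay at 43296 bp and the last at 1306826 bp of 1348131 bp.

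Members lay in coding sequence more often, and near start sites less often, than regions of the other arms. Summits lay in coding sequence at 102 members (25.9%, 21.6 to 30.5%), against 14.7% on the other arms, and coding sequence makes up 19.7% of chromosome 4. Introns held 150 (38.1%, 33.3 to 43.1%), against 43.5% on the other arms, with 46.1% of the bases of chromosome 4. Intergenic sequence held 71 (18.02%), against 23.0%, and 5′ UTRs held 28 (7.11%, 4.77 to 10.1%), against 11.3%. The 3′ UTRs held 28 (7.11%), against 4.68%, and other exons 15 (3.81%), against 2.79%. Within 500 bp of a start site lay 79 members (20.1%, 16.2 to 24.4%), against 33.0% on the other arms, while that zone covers 10.7% of chromosome 4.

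The start-site share depended on rank. Among the 12 IDR regions 7 lay within 500 bp (58.3%), against 59.1% of IDR regions on the other arms, and among ranks 4176 to 10000 it was 33 of 63 (52.4%, 39.4 to 65.1%), against 41.8%. Among ranks 10001 to 20000 it was 13.3% (8.42 to 19.6%), against 28.5%, and among ranks 20001 to 30000 it was 11.2% (6.76 to 17.1%), against 21.3%. The weak members were thus at start sites about as often as the bases of the chromosome are, whereas weak regions of the other arms were there more often than the 13.6% of bases that zone covers on them. Coding sequence held 2 of the 12 IDR regions (16.7%, 2.09 to 48.4%), against 1.66% of IDR regions on the other arms. These were the regions of RpS3A and ATPsynbeta, with summits 33 and 45 bp from a start site, so they also count as start-site regions. Coding sequence held 7.94% of members in ranks 4176 to 10000, against 7.39%. It held 30.4% in ranks 10001 to 20000 (23.3 to 38.2%), against 17.8%, and 29.2% in ranks 20001 to 30000 (22.3 to 36.9%), against 21.4%.

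Agreement between the replicates ran alongside. Of the 72 members with summits in both replicates, 28 lay within 500 bp of a start site (38.9%, 27.6 to 51.1%), against 12 of the 106 with summits in neither (11.3%, 5.99 to 18.9%). The median pooled rank was 9440.5 for the 72 and 24753 for the 106, so agreement and rank cannot be told apart in these shares. Coding sequence held 10 of the 72 (13.9%) and 33 of the 106 (31.1%). The replicates differed in this place as well, since coding sequence held 17.3% of the chromosome 4 regions in the list of replicate 4 and 26.8% in that of replicate 3. Median GC was 37.6% at members with a summit in replicate 3 alone and 35.3% at those in replicate 4 alone, and its part in the difference was not tested.

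**Figure D5:**
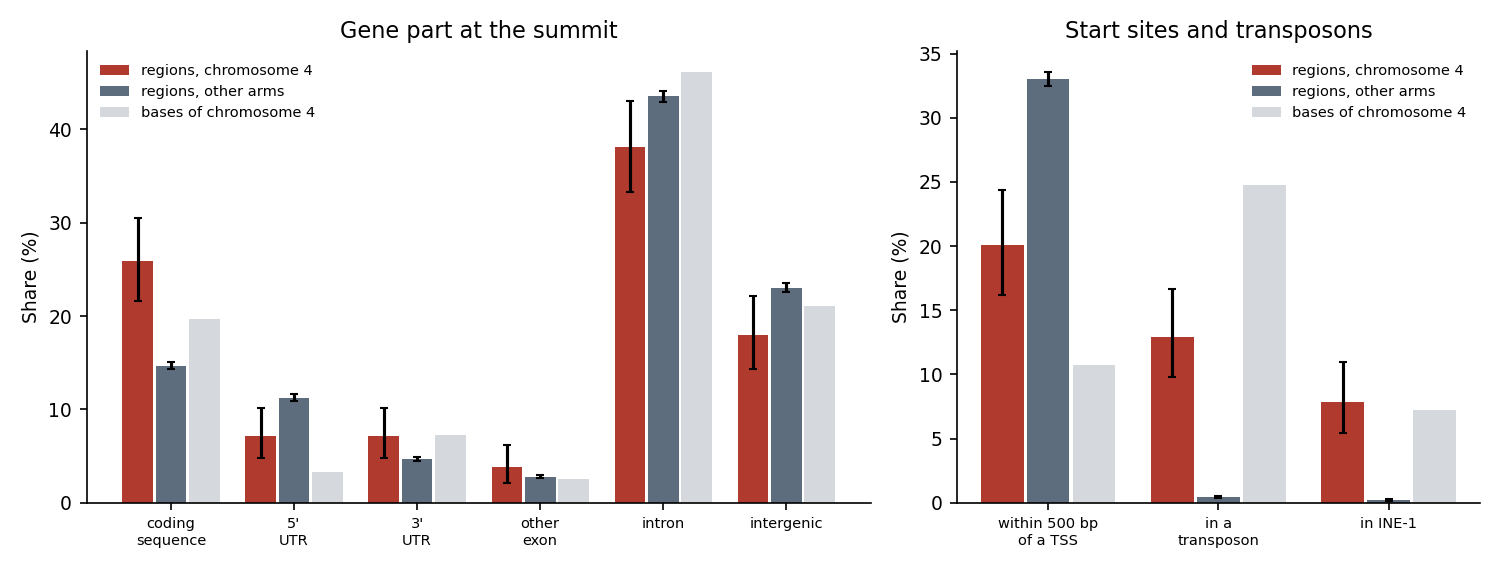
Left, share of pooled regions whose summit lay in each gene part, for chromosome 4 and the other arms with 95% Clopper-Pearson intervals, beside the share of chromosome 4 bases in that part. Right, the same for the zone within 500 bp of a start site, for annotated transposons and for INE-1; coding sequence held 25.9% of chromosome 4 regions and transposons 12.9%, against 14.7% and 0.459% on the other arms.

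Transposons set chromosome 4 apart from the other arms in sequence, and the regions followed in part. A summit lay in an annotated transposon at 51 members (12.9%, 9.79 to 16.7%), against 0.459% of regions on the other arms. Such sequence makes up 24.8% of chromosome 4 and 5.74% of the other arms, so on both it held a smaller share of regions than of bases. The short nonautonomous element INE-1 accounted for 31 members (7.87%, 5.41 to 11.0%), close to its 7.22% of the bases of the chromosome. The DNA transposon 1360 accounted for 8 (2.03%, 0.881 to 3.96%), with 3.79% of the bases, and HB and the telomeric retrotransposon HeT-A for 3 and 2. None of the 12 IDR regions lay in a transposon (up to 26.5%), against 0.0961% of IDR regions on the other arms. Of the 72 members with summits in both replicates 8 did (11.1%).

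The strongest member in a transposon was the INE-1 copy near anne at 74.0, and the strongest in 1360 was in an intron of Rnf11 at 68.0. That member, at chr4 summit 319274, had a replicate 3 signal of 64.3 and no replicate 4 summit within 100 bp, and 26.3% of its 31-base words occur more than once in the assembly. Reads of repeated words cannot be placed uniquely at that length, and how the authors treated such reads was not given in the sources used here. On average 1.48% of the 31-base words in member windows were repeated, against 0.235% on the other arms, while tiles had 15.8% on chromosome 4 and 12.6% on the other arms. All words were unique at 345 members (87.6%), against 97.6% on the other arms, and at all 12 IDR regions.

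Among members with summits in both replicates, the highest repeated shares were 26.9% at the 1360 copy in the 3′ UTR of Hcf, 25.1% at an intergenic region 20029 bp from dati and 18.7% at a gypsy8 copy near CG32006. The signals there were 42.5, 56.4 and 40.8 pooled, 19.99, 31.8 and 29.2 in replicate 3, and 9.91, 28.0 and 7.39 in replicate 4. The others of the 10 highest had shares between 1.17 and 10.5%, and 4 of them lay in INE-1 copies, at Hcf, in a CaMKII intron, near mav and near anne. Repeated sequence and a match in both replicates thus occurred together at 11 of the 72 (15.3%, 7.88 to 25.7%), against 10 of the 106 with summits in neither (9.43%, 4.62 to 16.7%), and these intervals overlap.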

How the data were processed

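The authors deposited peak lists, for dm6 and dm3, of regions from anti-GFP ChIP-seq of 2 biological replicates, with size ranges of 200 to 275 in replicate 3 and 200 to 300 in replicate 4 per the labels. Each relaxed list held 30000 regions. Per the deposited listings, the relaxed lists were derived from alignments and a control alignment, and the IDR list from the relaxed lists. Names and versions of aligner and peak caller were not given in the sources used here. Signal as deposited is the authors' value per region, of unknown scaling. The deposited −log10 q values and summit offsets, which are the authors' other columns, gave the q threshold of 0.01 and the summit. The files hold no read counts, so depth is unknown.

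Members, gene lists and alternatives were chosen with earlier results of these data known. Genes came from Ensembl release 115 and sequence from RefSeq's Release 6 assembly. In it, 296 of 298 start codons on chromosome 4 read ATG. Annotated transposons were left out of start sites and gene parts, and a summit in several parts counted in the order coding sequence, 5′ UTR, 3′ UTR, other exon, intron. Summits matched within 100 bp. Words of 31 bases on either strand counted as repeated when found more than once in the assembly. The named regions were the IDR regions, the 10 strongest others with summits in both replicates, the 5 strongest in neither, the 10 genes with most members, the listed genes, and the 10 most repeated members with summits in both. One region that the rule names is not reported here. Arf4 and Tdg were listed under older names. The functions were checked on simulated data. Python 3.11.15, NumPy 2.4.6, SciPy 1.17.1 and matplotlib 3.10.9 were used. With 1 group, no test was made.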

Additional observations from a re-analysis of the deposited data

How the results depend on the processing

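Of 45 alternatives for 11 results, 20 stayed within the 95% interval of the value, or within the spread between replicates for the signal ratio and the repeated words, and 25 did not. No paired analysis was possible because the labels give 1 group only. With 1 replicate left out, taking the list of the other, the share of regions on chromosome 4 was 1.14 to 1.28%, that near a start site 19.8 to 24.9%, in introns 37.0 to 41.1%, and with GAGAGAG 1.82 to 2.93%. The signal ratio was 0.881 to 0.891, repeated words were 1.68 to 2.15%, and genes with a summit 61.3 to 67.5%. At q of at most 0.01 the share on chromosome 4 was 0.618%, below its length share, and the ratio was 0.802. The IDR share at that q was 23.5% (12 of 51 regions), against 4163 of 8205 regions on the other arms. In dm3 the share on chromosome 4 was 1.49% and the ratio 0.888. At 50 bp, 200 bp and any overlap the replicate 3 share was 54.6, 67.3 and 67.5%, the replicate 4 share 18.02, 38.1 and 40.6%, and the share in both 10.2, 25.1 and 27.7%. A start-site window of 1000 bp gave 31.7% of regions and 78.8% of genes, and the stronger members gave 29.4%. GAGAGAG within 50 and 250 bp gave 0.508 and 3.81%, and words of 25 gave 2.81%. The causes were not tested, beyond wider windows holding more. Unknown depth limits the match shares, and 12 IDR regions limit every share over them.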
